A study of Mus musculus with 8 samples.

Results

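The 9 genes described here code for enzymes, and 1 activating protein, that turn arachidonic acid into eicosanoids: Pla2g4a, Ptgs1, Ptgs2, Ptges, Ptgis, Tbxas1, Alox5, Alox5ap and Alox15. They were picked by symbol from a table of 34536 gene symbols, and all 9 were present and had enough counts to be tested, as did 13817 genes in all. The set was built around Alox15, which was chosen by its lower level in the endocardial libraries of these data, and the other 8 were added for their place in the same pathway. The difference between the groups is therefore given for the members as a description, without a p-value. RNA came from mouse cells sorted by fluorescence from embryoid bodies, which are aggregates of differentiating pluripotent stem cells, with 4 libraries labelled endocardial (A, C, E and G) and 4 labelled endothelial (B, D, F and H). No treatment, genotype, stem cell line, culture day or sort marker was given in the sources used here, and no label says that libraries came from separate cultures, so each p-value reflects library-to-library spread that may be technical.

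Eicosanoids are short-lived lipid signals made from arachidonic acid, a fatty acid held in membrane phospholipids. A phospholipase frees the acid, cyclooxygenases turn it into an unstable prostaglandin that specific synthases convert to prostaglandin E, prostacyclin or thromboxane, and lipoxygenases turn it into leukotrienes and hydroxy fatty acids. Prostacyclin is known as the typical product of vessel walls, thromboxane as that of platelets, and leukotrienes as products of myeloid cells.

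Alox15 transcripts were far more abundant in the libraries labelled endothelial, at 6.63 ± 1.53 CPM against 0.59 ± 0.298 CPM (SD, n = 4 each), where CPM is the count scaled to the total of its library. Pla2g4a, Ptgs1, Tbxas1 and Alox5 were highest in libraries A and B, 1 from each group, and differed more between libraries of a group than between the groups. Alox5ap, the partner protein of Alox5, had a higher mean in the endocardial libraries. Ptgis and Ptges were at similar levels throughout.

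Library totals ran from 6677667 to 11369363 counts, and a count of 0 would have allowed a level of up to 0.267 to 0.438 CPM (3 counts), counting error alone considered. Summed over 10 endothelial marker genes such as Cdh5 and Pecam1, the libraries labelled endothelial had 439 to 896 CPM and those labelled endocardial 1418 to 1892 CPM, and 8 of the 10 genes were called higher in the endocardial libraries. So the endothelial label went with less, though present, endothelial marker RNA. Single markers were 1.11-fold (Tek) to 8.2-fold (Cdh5) higher in the endocardial libraries. Kdr and Tek weighed heavily in the sums of the endothelial libraries, at 129 to 332 and 49.5 to 334 CPM. There Cdh5 was at 14.5 to 17.1 CPM and Erg at 4.07 to 5.69 CPM. Over 10 markers of pluripotent cells the endothelial libraries had 149 to 995 CPM, with the top value in F, and the endocardial libraries 33.1 to 138 CPM. Of these 10 genes 2 were called lower in the endocardial libraries. In bulk RNA, fewer cells of a type and less RNA per cell cannot be told apart.

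Compared per kilobase of exon, Ptgis, which makes prostacyclin, had the highest mean of the 9 genes, at 24.5 ± 4.64 CPM per kb (SD, n = 8). Pla2g4a followed at 7.3 ± 5.06, Ptgs2 at 4.93 ± 2.94, Alox5ap at 4.29 ± 3.39, Ptges at 4.11 ± 0.793, Ptgs1 at 3.31 ± 3.43, Alox5 at 2.11 ± 2.11, Tbxas1 at 1.71 ± 1.02 and Alox15 at 1.5 ± 1.41, all in CPM per kb. From Pla2g4a downwards, neighbours differed by less than the larger of their SDs, so that the order of neighbours among these 8 is not settled. Genes further apart in the order were not compared in this way. Within the endocardial libraries Alox15 was the lowest member at 0.245 ± 0.124 CPM per kb (n = 4). Within the endothelial libraries its mean ranked above those of 4 members, at 2.75 ± 0.634 CPM per kb (n = 4). These were Ptgs1 at 2.32 ± 2.03, Alox5ap at 1.96 ± 1.33, Tbxas1 at 1.77 ± 1.02 and Alox5 at 1.58 ± 1.57. Each lay below Alox15 by less than its own SD, so that rank is not settled.

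**Figure D1:**
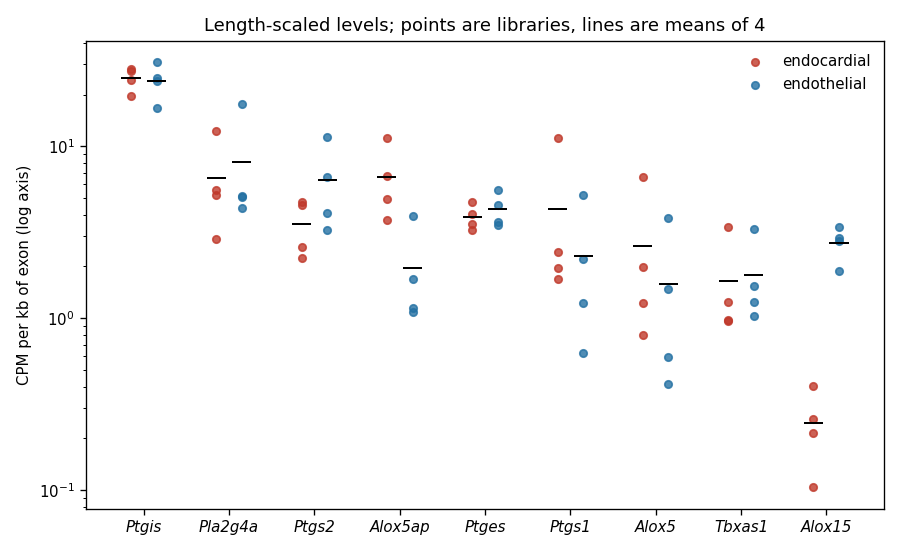
Level of each member in CPM per kilobase of exon on a log axis, ordered by the mean over 8 libraries. Points are libraries, red for endocardial and blue for endothelial, and black lines are means of 4. Ptgis is the highest gene in every library, and the 4 endocardial points of Alox15 are the lowest drawn.

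Alox15 is an arachidonate lipoxygenase known in the mouse from resident macrophages and eosinophils, that adds oxygen to free or membrane-bound fatty acids. It lies on chromosome 11 from 70344152 to 70352031 (build GRCm38, minus strand, protein-coding) and overlaps no other annotated gene. The endothelial libraries had 92 counts in B, 48 in D, 65 in F and 38 in H, which is 8.2, 7.01, 6.78 and 4.54 CPM. The endocardial libraries had 4 counts in A, 6 in C, 9 in E and 2 in G, which is 0.516, 0.628, 0.968 and 0.25 CPM. The groups did not overlap. With so few counts the levels are imprecise: the exact Poisson 95% interval was 0.0302 to 0.901 CPM in G and 3.22 to 6.24 CPM in H, which covers counting error alone. The fitted log2 difference, endocardial minus endothelial, was -3.44 (SE 0.39), a level 10.9-fold higher in the endothelial libraries.

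Alox15 passed the filter on low counts through its endothelial libraries alone. When each library was left out in turn, its log2 difference ran from -3.79 to -3.19, and without libraries A and B it was -3.26, from the same values it was chosen on. Of all tested genes, 1.16% were called lower and 1.42% higher in the endocardial libraries, 2.58% in all, by edgeR's quasi-likelihood test at a Benjamini-Hochberg adjusted p below 0.05. In 9.76% of tested genes the groups did not overlap. Among the 9 members 1 was called, lower, and 1 had groups that did not overlap, in each case Alox15, the gene the set was built on, so nothing is read from these counts. Alox5ap was called higher in 3 of 15 alternatives, namely by DESeq2 and by edgeR without B and without A and B.

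Another pair of lipoxygenase genes lies near Alox15 on chromosome 11. Alox12, the platelet-type lipoxygenase, whose end lies 88.8 kb from the start of Alox15 on the same strand, had 7.88, 1.26, 1.94 and 2.12 CPM in A, C, E and G and 11.1, 1.02, 3.65 and 1.55 CPM in B, D, F and H. Its 2 highest values were thus in B and A, 1 of each group, and its log2 difference was -0.43 (SE 0.79, edgeR adjusted p = 0.873). Alox12e, an epidermal lipoxygenase between them, had 0 counts in each endocardial library and 3, 0, 2 and 1 in B, D, F and H, too few to test. On the far side, Pelp1, a transcriptional coregulator, was level at 116 to 144 CPM in all libraries (log2 difference -0.05, SE 0.10), as was Rnasek beyond Alox12 (0.08, SE 0.18). The neighbouring predicted genes Gm12312 and Gm12313 had at most 1 count in a library. Of 2422 words of 31 bases in the annotated Alox15 transcripts, 0 occurred in a transcript of another gene, which bears on how an aligner could share out its reads.

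Genes whose log2 CPM over the 8 libraries was most like that of Alox15 were Nfasc (Pearson r = 0.989), Pacsin3 (0.967), Tex264 (0.966), Dhx32 (0.962) and Kcnj3 (0.961). Nfasc codes for a neuronal adhesion protein and Kcnj3 for a potassium channel subunit. Kcnj3 had 1.57 to 1.75 CPM in the endocardial and 8.74 to 10.5 CPM in the endothelial libraries. Pacsin3, at 15.6 to 16.9 and 18.8 to 21.4 CPM, followed the same order of groups with a far smaller difference. These are the highest of many correlations over 8 libraries of 2 groups and are given as a description.

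Known Alox15-expressing blood cells can be set beside these values. Over 16 macrophage and myeloid markers, 0 of which were at 0 in all libraries, the sum was 544 CPM in A, 64.4 in C, 130 in E and 59.6 in G, and 179 in B, 26.6 in D, 85.4 in F and 31.2 in H. The sum was highest in A and lowest in D. The eosinophil genes Epx and Prg2 had at most 2 counts in any library, and of the 12 mast cell and granulocyte markers Fcer1a, Elane and S100a8 had none. Hdc, the histamine-forming enzyme, was at 5.48 to 11 CPM in all libraries, and Mpo, myeloperoxidase, was at 4.49 to 9.3 CPM in the endocardial and 0.584 to 3.03 CPM in the endothelial libraries. The pluripotent marker sum given above was higher in every endothelial than in any endocardial library, as was Alox15. Single genes weighed heavily in it, with Dppa5a at 486 of 995 CPM in F and Klf4 at 65.1 of 85 CPM in G. Among the endothelial libraries B had the highest Alox15, at 8.2 CPM, and the lowest sum, at 149 CPM. Library F had 6.78 CPM of Alox15 and the highest sum. The neural ectoderm markers Sox1, Pax6, Fezf2 and Pax3 were likewise higher in every endothelial than in any endocardial library. So were the epithelial markers Cdh1, Epcam, Esrp1 and Cldn4, while the other markers of both lists overlapped. Groups without overlap occurred in 9.76% of all tested genes. The part of any of these cells in the Alox15 difference was not tested.

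**Figure D2:**
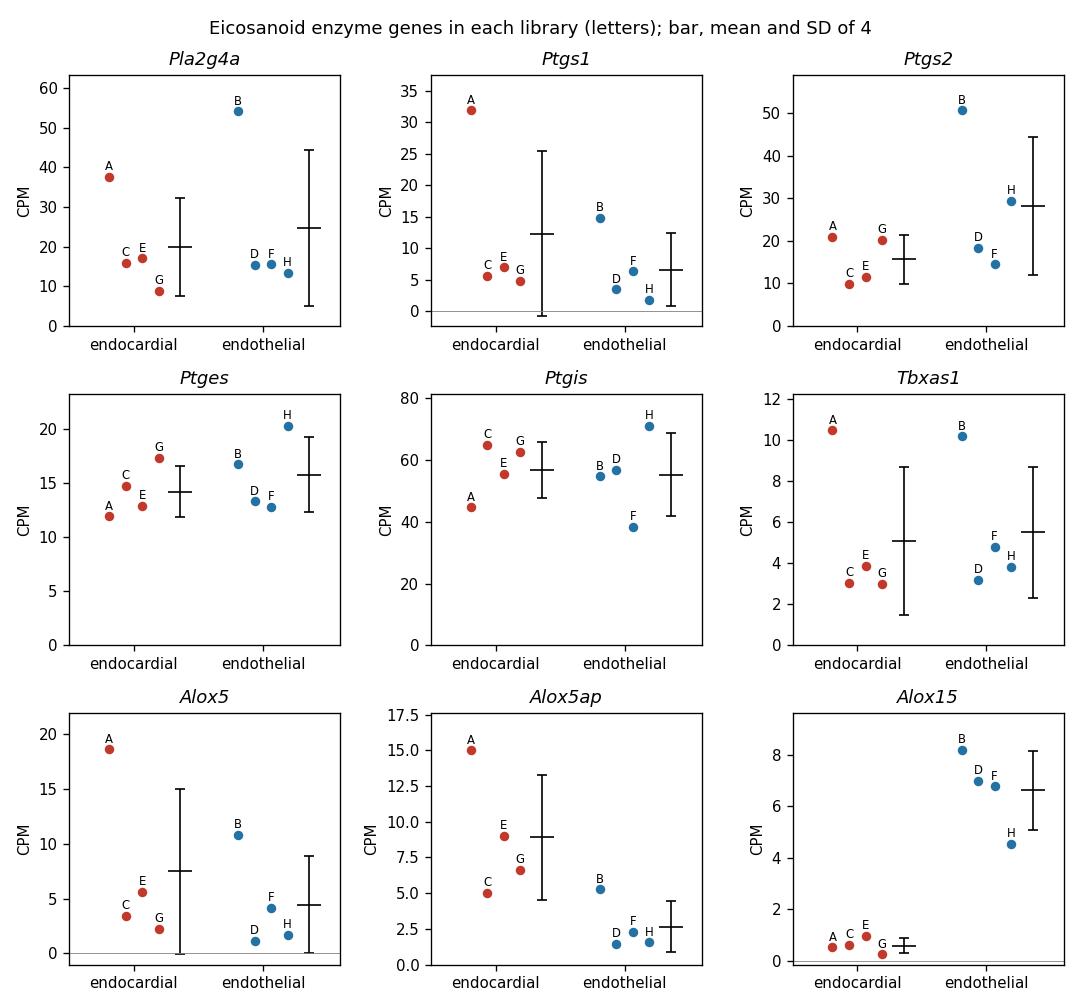
CPM of each member in each library, with a panel per gene and its own axis, libraries named by letter, endocardial in red and endothelial in blue. Black marks are the mean and SD of 4 libraries. Alox15 separates the groups, while A and B stand above the other libraries of their groups for Pla2g4a, Ptgs1, Tbxas1 and Alox5.

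Pla2g4a, the cytosolic phospholipase that frees arachidonic acid (chromosome 1, 149829618 to 149961290), had 37.7, 15.9, 17.1 and 8.86 CPM in A, C, E and G. The endothelial libraries had 54.1, 15.5, 15.6 and 13.4 CPM in B, D, F and H. Library B stood 3.65-fold above the mean of the other 3 endothelial libraries and A 2.7-fold above the mean of the other 3 endocardial ones. The remaining 6 libraries lay between 8.86 and 17.1 CPM with the groups mixed. The log2 difference between the groups was -0.32 (SE 0.54), and it was 0.43 without B, -0.84 without A and -0.09 without either.

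Ptgs1, the constitutive cyclooxygenase (chromosome 2, 36230426 to 36252272), had 31.9, 5.65, 6.99 and 4.87 CPM in A, C, E and G, and 14.9, 3.5, 6.36 and 1.79 CPM in B, D, F and H. Library A was 5.46-fold above the mean of C, E and G, and B was 3.83-fold above that of D, F and H. The groups overlapped, with a log2 difference of 0.86 (SE 0.75) that was -0.22 without A, 1.65 without B and 0.57 without both libraries. It was also smaller, at 0.55, without H.

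Ptgs2, the inducible cyclooxygenase that makes the same product (chromosome 1, 150100031 to 150108227), followed another order. It was at 21.0, 9.94, 11.6 and 20.3 CPM in A, C, E and G and at 50.6, 18.3, 14.5 and 29.4 CPM in B, D, F and H. B and H were highest, and the groups overlapped between 14.5 and 21.0 CPM. The log2 difference was -0.85 (SE 0.40), which was -0.39 without B and -0.58 without A and B. Dissociation and stress genes, among them Fos, Jun and Egr1, with which Ptgs2 shares a rapid response, summed to 2652 CPM in G and 2578 CPM in H and to 382 to 1018 CPM in the other 6 libraries. G and H had the highest Ptgs2 of their groups after A and B, and the part of this response was not tested.

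Since both cyclooxygenases make the same intermediate, their balance was taken per kilobase of exon. Ptgs1 was 70.2% of the sum of the 2 levels in A, 46.9% in C, 48.3% in E and 27.1% in G. In the endothelial libraries it was 31.4% in B, 23% in D, 40.5% in F and 8.65% in H. The share ranged widely in each group and the groups overlapped, with Ptgs1 above 50% in A alone. The number of counts behind the lowest share, in H, was 15 for Ptgs1 and 246 for Ptgs2.

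The 3 synthases downstream of the cyclooxygenases had fitted differences smaller than their SEs. Ptgis, prostacyclin synthase (chromosome 2, 167191805 to 167240604), was at 44.7, 64.8, 55.4 and 62.6 CPM in A, C, E and G and at 54.7, 56.9, 38.4 and 71.0 CPM in B, D, F and H. Its range was 1.45-fold within the endocardial and 1.85-fold within the endothelial libraries, and its log2 difference was 0.04 (SE 0.19), or -0.11 without F and -0.05 without C. Ptges, the inducible prostaglandin E synthase (chromosome 2, 30889471 to 30929863), had 11.9 to 17.3 CPM in the endocardial and 12.8 to 20.3 CPM in the endothelial libraries, a log2 difference of -0.15 (SE 0.19). Their coefficients of variation within a group were 16% to 24.2%. Antisense genes overlap Ptgis and Alox5ap, and whether the counting used strand is not given in the sources used here.

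Tbxas1, thromboxane synthase (chromosome 6, 38875404 to 39084585), had 10.5, 3.04, 3.87 and 2.99 CPM in A, C, E and G and 10.2, 3.21, 4.8 and 3.83 CPM in B, D, F and H. The values in A and B were nearly equal, and the remaining 6 libraries lay between 2.99 and 4.8 CPM. The group means were 5.09 ± 3.6 and 5.5 ± 3.18 CPM (SD, n = 4), with a log2 difference of -0.13 (SE 0.50), which became 0.36 without B and -0.76 without A, and which was also above 0 without C or G, at 0.04 and 0.06. Hipk2 overlaps Tbxas1 on the other strand, and 1.51% of the 31-base words of Tbxas1 transcripts occur in other genes, more than for any other member, so its level is less certain.

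Leukotriene synthesis needs Alox5, the lipoxygenase, and Alox5ap, the membrane protein that presents arachidonic acid to it. Alox5 (chromosome 6, 116410077 to 116461178) had 18.6, 3.45, 5.59 and 2.25 CPM in A, C, E and G and 10.8, 1.17, 4.17 and 1.67 CPM in B, D, F and H. It had the widest range of the members within a group, 9.24-fold among the endothelial libraries, and its log2 difference was 0.71 (SE 0.79). That difference was -0.28 without A, 1.64 without B and 0.66 without both, and without D or H it was 0.41 or 0.44. The ranges of the groups overlapped.

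Alox5ap (chromosome 5, 149264767 to 149288153) differed more between the groups than its partner. It was at 15, 5.02, 9.03 and 6.61 CPM in A, C, E and G and at 5.26, 1.46, 2.29 and 1.55 CPM in B, D, F and H. Only B, above C, broke the order of the groups. The means were 8.91 ± 4.37 and 2.64 ± 1.78 CPM (SD, n = 4), with a log2 difference of 1.72 (SE 0.48), a 3.28-fold higher level in the endocardial libraries. It was 1.33 without A, 2.31 without B and 1.94 without either. The ratio of Alox5ap to Alox5 counts was 0.806, 1.45, 1.62 and 2.94 in A, C, E and G and 0.488, 1.25, 0.55 and 0.929 in B, D, F and H, and these ranges overlapped.

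In 4 of the 9 members, Pla2g4a, Ptgs1, Tbxas1 and Alox5, A and B held the 2 highest values, as they did in 9.24% of all tested genes. The members were not chosen for this, but earlier results of these libraries were known. Markers of blood cells were high in the same libraries. All 16 macrophage and myeloid markers peaked in A, and none in B, a looser measure whose share over all genes was not taken. A and B held the 2 highest values in 8 of the 16. For the rest another library was above B, such as E for Tyrobp, at 14.2 against 8.02 CPM. Csf1r, a receptor of macrophages, was at 118 CPM in A, 38.1 in B and 2.34 to 20.5 CPM in the other 6. All 11 megakaryocyte and platelet markers also peaked in A or B, and in 10 of them A and B held the 2 highest values. Their sum was 717 CPM in A, 521 in B and 67.5 to 213 in the others. Erythroid markers summed to 1159 CPM in A and 1897 CPM in B against 191 to 601 CPM, and A and B were the 2 highest for 4 of 7. The sum of 9 mesenchymal and mural markers was highest in B, at 18434 CPM against 2974 to 6937 CPM elsewhere, mostly through the collagen genes Col1a1 (10383 CPM in B) and Col3a1 (5722 CPM in B), while 4 of the 9 markers peaked in B. B also had the highest Pla2g4a and Ptgs2, and the part of those cells was not tested.

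The genes most like Alox5 over the 8 libraries were the leukocyte gene Cd53 (Pearson r = 0.996), Csf1r (0.992) and Cx3cr1 (0.990), the fractalkine receptor of macrophages and microglia. Those most like Ptgs1 were Lilrb4a (0.990), Nrros (0.984) and Ints6l (0.983), the first a receptor of myeloid cells. For Tbxas1 they were Meis1 (0.978), Lpl (0.976) and Fuca1 (0.975), and for Pla2g4a they were Clptm1l (0.979), Atl3 (0.967) and the embryonic globin gene Hbb-bh0 (0.963). By contrast Ptgis was most like Map4 (0.996), Cald1 (0.992) and Flot2 (0.982), which belong to the cytoskeleton and membrane, and Ptges was most like Sec62 (0.974), Erlec1 (0.961) and Arhgef26 (0.959). Ptgs2 was most like Agtr1a (0.972), Smpd1 (0.941) and Tdrd7 (0.934), and Alox5ap was most like Nt5c3 (0.985), Ubash3b (0.976) and Mcur1 (0.974). Libraries A and B weigh heavily in the blood-like correlations, which have no more than 8 points each, and the part of blood cells in the values of A and B was not tested.

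**Figure D3:**
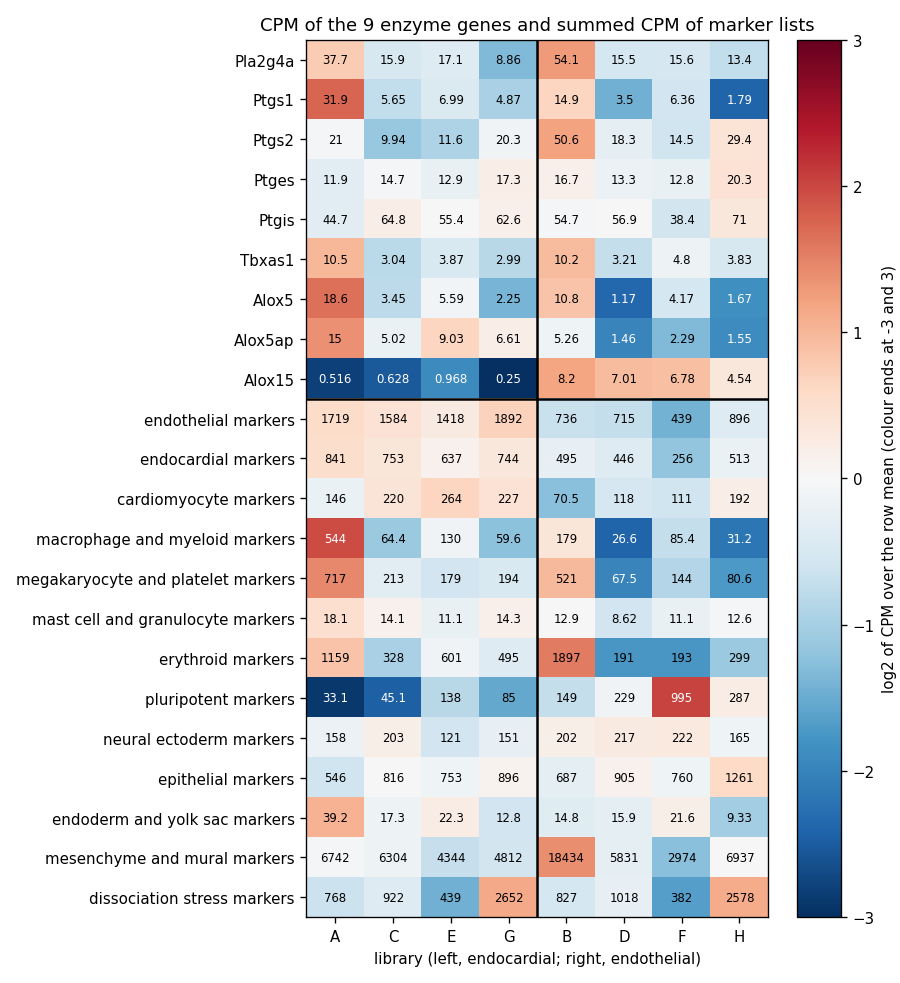
CPM of the members (upper rows) and summed CPM of marker lists (lower rows) in each library, printed in the cells. Colour is the log2 of the value over its row mean, endocardial libraries to the left of the black line and endothelial to the right. Alox5 and Ptgs1 are red in A and B, as are the macrophage and megakaryocyte rows, while Alox15 changes colour at the line.

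The stretches before the start sites of Ptgs1, Alox5 and Tbxas1, 3 of the 4 genes that were highest in A and B, are shown beside that of Ptgs2, whose product is the same as that of Ptgs1 but whose order of libraries differed. RefSeq promoters (GRCm38.p6) were given for 6 of the 9 members, not for Alox15, Alox5ap or Ptgis. Each run is the 250 bases before the RefSeq start, read 5′ to 3′ on the strand of the gene, and capitals mark matches on either strand to 4 motifs. The Tbxas1 run lies inside the annotated span of its gene, which starts at 38875404, and not before it. These are an ETS motif of the PU.1 kind, spelled GAGGAA, the core of a motif bound by blood factors of the GATA family, spelled GATAA, the GC box, spelled GGGCGG, and the TATA box, spelled TATAAA. The motifs were chosen after earlier results were known.
Ptgs1, chr2:36230176-36230425, plus strand: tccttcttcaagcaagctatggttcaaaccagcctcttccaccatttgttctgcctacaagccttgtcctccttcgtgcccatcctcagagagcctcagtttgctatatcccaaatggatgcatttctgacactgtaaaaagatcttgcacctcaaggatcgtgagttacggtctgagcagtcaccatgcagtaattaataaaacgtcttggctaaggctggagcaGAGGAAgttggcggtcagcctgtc
Alox5, chr6:116461179-116461428, minus strand: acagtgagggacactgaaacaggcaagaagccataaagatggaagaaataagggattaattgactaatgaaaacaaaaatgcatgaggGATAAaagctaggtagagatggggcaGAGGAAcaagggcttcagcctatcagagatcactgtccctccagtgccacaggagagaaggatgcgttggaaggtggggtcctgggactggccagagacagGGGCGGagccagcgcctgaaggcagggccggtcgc
Tbxas1, chr6:38918736-38918985, plus strand: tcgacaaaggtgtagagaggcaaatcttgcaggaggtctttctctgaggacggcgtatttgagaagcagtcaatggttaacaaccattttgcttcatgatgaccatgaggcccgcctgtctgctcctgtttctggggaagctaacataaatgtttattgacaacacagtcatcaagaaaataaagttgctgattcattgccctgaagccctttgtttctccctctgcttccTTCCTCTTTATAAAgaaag
Ptgs2, chr1:150099781-150100030, plus strand: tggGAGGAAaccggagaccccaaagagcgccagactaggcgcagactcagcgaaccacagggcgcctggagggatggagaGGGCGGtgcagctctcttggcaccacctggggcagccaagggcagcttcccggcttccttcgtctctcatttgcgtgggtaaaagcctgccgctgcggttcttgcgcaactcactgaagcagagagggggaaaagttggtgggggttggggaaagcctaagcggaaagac

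Counting back from -1, the base before the start, and naming the leftmost base of each match, Ptgs1 held GAGGAA at -24. Alox5 held it at -136, with GATAA at -162 and GGGCGG at -35. Tbxas1 held it on the other strand at -19, followed by TATAAA at -11 and an overlapping match on the other strand at -13. Ptgs2 held GAGGAA at -247 and GGGCGG at -170. The fourth gene that was highest in A and B, Pla2g4a, has 2 RefSeq starts, and neither window held GAGGAA. Of these windows 1 had no match to any of the motifs. The other, inside the annotated span of the gene, had TATAAA at -200 and GATAA at -161, both on the other strand, and GATAA at -53. The window of Ptges, also inside its annotated span, held GAGGAA on the other strand at -149 and GGGCGG at -53 and -42. So 5 of the 7 member windows held GAGGAA, as did 23.3% of the 32851 RefSeq windows of this length. GATAA, in 22.6% of the RefSeq windows, was in those of Alox5 and 1 of Pla2g4a. GGGCGG, in 32.7%, was in those of Alox5, Ptges and Ptgs2. TATAAA, in 12.4%, was in those of Tbxas1 and 1 of Pla2g4a. A match is a description of the letters alone.

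The wider pathway was taken from 97 other genes listed by role, of which 96 were in the table and 59 were tested. Of these 59, edgeR called 3 lower and 0 higher in the endocardial libraries over all genes, which is 5.08% against 2.58% of all tested genes. At an unadjusted edgeR p under 0.05 there were 9 lower and 3 higher, where all 13817 tested genes had 1242 lower and 781 higher. DESeq2 called 5 of the pathway genes among 893 calls in 17096 genes, and limma 6 among 975 calls in 13817 genes. The median log2 difference was -0.05, and over all tested genes it was 0.01. The 3 genes were Elovl2, Cyp2s1 and Abcc4, and they belong to different steps.

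Elovl2, which elongates long polyunsaturated fatty acids, had 2.71, 1.78, 3.66 and 1.87 CPM in A, C, E and G and 7.49, 8.76, 16.6 and 7.77 CPM in B, D, F and H. The groups did not overlap, and the log2 difference was -2.01 (SE 0.35, edgeR adjusted p = 0.0178). The call was lost without C (adjusted p = 0.0659), D (0.0541) or G (0.0688).

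Cyp2s1, a cytochrome P450 oxidase, had 6.46, 2.93, 3.55 and 3.99 CPM against 14.5, 8.18, 11.7 and 10.6 CPM in the same order, also without overlap. Its log2 difference was -1.42 (SE 0.29, edgeR adjusted p = 0.0327). It stayed called without A (adjusted p = 0.0175) and in none of the other 7 fits that leave out a library, where the edgeR adjusted p was 0.053 without H to 0.107 without G.

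Abcc4, a pump that exports prostaglandins, had 5.55, 5.23, 5.59 and 3.49 CPM in A, C, E and G and 13.6, 13.1, 40.3 and 12.8 CPM in B, D, F and H. Its log2 difference was -2.0 (SE 0.41, edgeR adjusted p = 0.0332), and without F, its highest library, it was -1.42 (adjusted p = 0.00933). The call was lost without A (0.0924), C (0.105), D (0.0576), E (0.0966) or G (0.113) and without A and B (0.0859). Library F, highest for Elovl2 and Abcc4, had the pluripotent marker sum of 995 CPM given above, and the part of those cells was not tested.

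The other members of these roles were not called. Among phospholipases (0 of 10 called), Pnpla8 and Pla2g15 were abundant and level, at 48.3 ± 7.36 and 51.7 ± 7.03 CPM and at 46.8 ± 3.24 and 46.9 ± 3 CPM (SD, n = 4, endocardial first). Pla2g4b, a relative of Pla2g4a, had a log2 difference of -0.83 (SE 0.31, edgeR adjusted p = 0.231) and Pla2g4e one of -1.79 (SE 0.55, adjusted p = 0.135). Of lipoxygenases other than members, Alox12 alone was tested. Of leukotriene enzymes (0 of 6), Lta4h, which takes up the product of Alox5, was at 143 ± 29.8 and 111 ± 29.2 CPM, a log2 difference of 0.37 (SE 0.21), and Mgst3 had one of -0.36 (SE 0.37). Ltc4s, which makes the cysteinyl leukotrienes, was too low to test.

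Among prostanoid synthases (0 of 6), Ptges3, also a chaperone partner of Hsp90, was at 204 ± 47.2 and 191 ± 20.7 CPM, and Akr1b3 had a log2 difference of 0.09 (SE 0.12). Of 6 genes for breakdown and transport, Abcc4 alone was called. Slco2a1, which takes prostaglandins up into cells, had 3.66 to 7.1 CPM in the endocardial libraries against 2.63 to 3.34 CPM in the endothelial ones, but was not called (log2 difference 0.73, SE 0.28, edgeR adjusted p = 0.24). Abcc1 was at -0.31 (SE 0.20) and Ptgr2, a prostaglandin reductase, at 0.10 (SE 0.12).

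Of 18 receptor genes 7 were tested and 0 called. Ptger1, a receptor for prostaglandin E, had the smallest p, with 10.9 ± 3.54 and 6.16 ± 2.69 CPM (SD, n = 4; log2 difference 0.81, SE 0.33, edgeR adjusted p = 0.283), and Cmklr1 had a log2 difference of 0.33 (SE 0.33). Ptgir, the prostacyclin receptor, was too low to test, at 0 to 1.81 CPM, although Ptgis was the highest member. Of 8 tested genes for cytochrome P450 enzymes and epoxide hydrolases, Cyp4f16 and Cyp4f13 were level at -0.14 (SE 0.13) and -0.12 (SE 0.16). Ephx2, the soluble epoxide hydrolase, had a log2 difference of -2.09 (SE 0.64, edgeR adjusted p = 0.138) and Cyp2j9 one of -1.24 (SE 0.35, adjusted p = 0.106). Ephx2 reached 21.9 CPM in F against 3.57 to 6.46 CPM in B, D and H.

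Of 15 tested genes listed for the supply and handling of arachidonic acid, Elovl2 alone was called. It elongates long polyunsaturated fatty acids, so its call is not read as a difference in arachidonic acid supply. Fads1, the desaturase that forms arachidonic acid, was at 294 ± 3.86 and 331 ± 23.6 CPM (log2 difference -0.17, SE 0.10, edgeR adjusted p = 0.506), although its groups did not overlap. Acsl3, which activates fatty acids, was at -0.20 (SE 0.13), Acsl5 at 0.43 (SE 0.17, adjusted p = 0.27) and Acsl6 at -1.65 (SE 0.46, adjusted p = 0.0965). DESeq2 and limma called Ephx2 and Acsl6 lower as well, and limma also Cyp2j9.

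**Figure D4:**
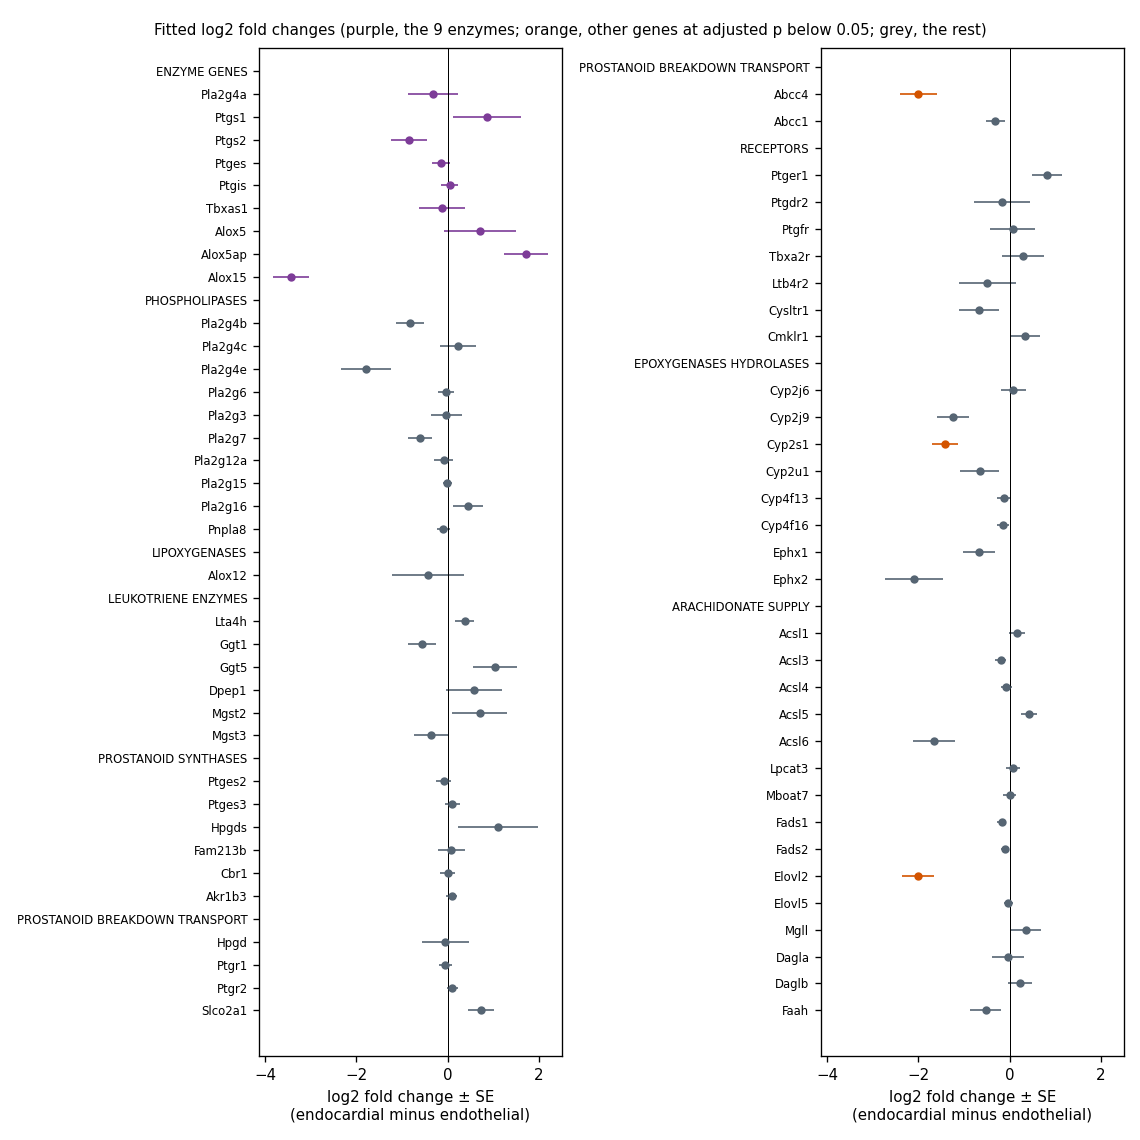
Fitted log2 difference, endocardial minus endothelial, with its SE, for the 9 members (purple) and the 59 other tested pathway genes by role. Orange marks the 3 other genes called at an edgeR adjusted p below 0.05, and all 3 lie to the left of 0. Alox15 lies farthest from 0 of all genes drawn.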

How the data were processed

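The deposited table holds estimated counts per gene symbol for 8 libraries, as whole numbers that were not brought to a common total. Salmon, a transcript quantifier, DESeq2 and build mm10 are named per the submitters' processing notes, without versions or roles, and the transcript set is not given in the sources used here. Per the labels' protocols, RNA was purified on silica columns and libraries came from a stranded kit for mRNA.

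The counts were scaled by TMM after a filterByExpr filter that asks for a count of 10 and a total of 15, then fitted with edgeR 4.0.16 in R 4.3.3 (robust quasi-likelihood F-test, all 8 libraries, no block), with p-values adjusted by Benjamini-Hochberg over 13817 genes. Rounding changed no value. Depth was 6677667 to 11369363 counts. Each SE is the absolute log2 difference over the square root of F. CPM uses TMM-scaled totals. Coordinates and exon lengths come from the GENCODE M21 basic set (GRCm38, the assembly of mm10). Alternatives were DESeq2 1.42.0, limma 3.58.1 with voom and library quality weights, other scalings and filters, and each library left out. Leaving out both A and B was added after seeing the data. The fit was tested on simulated data.

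The members, gene lists and rules were chosen with earlier results of these data known. Named were the 9 members, called pathway genes, the 2 most abundant uncalled ones per role, the 8 smallest p-values, the genes most alike over 8 libraries (log2 CPM with prior count 2, mean of at least 3 CPM, no predicted genes, 5 for Alox15 and 3 otherwise) and the neighbours of Alox15. Hipk2, Ptgir, Ltc4s and single markers were named after their values were seen.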

Additional observations from a re-analysis of the deposited data

Results flagged for a closer look

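Over the 9 members and 25 named pathway genes, 68 groups of 4 libraries were searched for a library that stands apart from the other 3, by its gap as a share of the whole range. For normally distributed values chance gives about 1 in 20 groups, and 9 were found. CPM values need not be normal and the groups share the same 8 libraries, so 9 is not read as an excess. In the endocardial libraries, A stood apart for Ptgs1 (31.9 CPM against 4.87 to 6.99, gap share 0.9214), for Tbxas1 (10.5 against 2.99 to 3.87 CPM, 0.8825) and for Alox12 (7.88 against 1.26 to 2.12 CPM, 0.8693). Library B stood apart among the endothelial libraries for Pla2g4a (54.1 against 13.4 to 15.6 CPM, 0.9447). Library F stood apart for Abcc4 (40.3 against 12.8 to 13.6 CPM, 0.9692), Pla2g4e (5.32 against 1.91 to 2.32 CPM, 0.8811), Elovl2 (16.6 against 7.49 to 8.76 CPM, 0.8602) and Ephx2 (21.9 against 3.57 to 6.46 CPM, 0.8424). Library G was lowest for Abcc4 (3.49 against 5.23 to 5.59 CPM, 0.8291). No library stood apart in this way for Alox15, Alox5, Alox5ap, Ptgs2, Ptges or Ptgis.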

How the results depend on the processing

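With 4 libraries a group, the number of called genes rested on single libraries and on the tool. Against 356 calls, DESeq2 made 893 (338 higher, 555 lower), limma 975 (410 higher, 565 lower) and the fit without A and B 227, and leaving out each library in turn gave 135 (without E) to 457 (without B). Without A there were 189 calls, and without C, D or G there were 157, 138 or 153. Other pathway genes called were 3, but 5 by DESeq2, 6 by limma and 0 to 2 with a library left out (0 without C, D or G, 1 without E). The causes were not tested. Relative log expression and upper-quartile scaling and the 2 other filters left 3. Directions of uncalled genes near 0 turned: Pla2g15 was 0.01 by DESeq2, 0.06 by limma, 0.00 without a filter and -0.06 to 0.03 with a library left out. In those fits Alox12 ran from -1.33 to 0.63, Ptges3 from -0.08 to 0.17 and Cyp4f13 from -0.22 to 0.01. At 2 to 9 endocardial counts, the low level of Alox15 is known only within its counting intervals.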

Other observations

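Markers of further cell types that such cultures can hold were also measured. Of 7 endocardial marker genes 6 were tested and 3 were called higher in the endocardial libraries by edgeR, with sums of 637 to 841 CPM against 256 to 513 CPM. Cardiomyocyte markers summed to 146 to 264 CPM in the endocardial and 70.5 to 192 CPM in the endothelial libraries, and 0 of 7 were called. Of 6 tested neural ectoderm markers 4 were called lower in the endocardial libraries, although the sums overlapped at 121 to 203 and 165 to 222 CPM. Nes alone made up most of these sums, at 109 to 189 and 137 to 171 CPM. The called genes Sox1, Pax6, Fezf2 and Pax3 did not overlap between the groups, while Nes and Zic1 did. Epithelial markers had 2 of 7 called lower, Cdh1 and Epcam, with sums of 546 to 896 and 687 to 1261 CPM. Krt8 and Krt18, whose groups overlapped, weighed heavily in these sums, while Cdh1 was at 13.7 to 40.9 and 75.8 to 223 CPM. Endoderm and yolk sac markers had 1 of 3 called higher, with sums of 12.8 to 39.2 and 9.33 to 21.6 CPM. The called gene was Sox17 (log2 difference 1.84, SE 0.29). Foxa2 went the other way (-1.74, SE 0.59), and Afp (1.95, SE 0.85) was highest in A, at 18.6 CPM. Mast cell and granulocyte markers summed to 11.1 to 18.1 and 8.62 to 12.9 CPM, with 0 of 2 called. The part of these cells in the levels of the 9 enzyme genes was not tested.

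Libraries with neighbouring letters, 1 from each group, had similar sums of dissociation stress genes, at 768 and 827 CPM in A and B, 922 and 1018 in C and D, 439 and 382 in E and F, and 2652 and 2578 in G and H. No label says that neighbouring letters share a culture or a day, so no paired fit was made. Read side by side in that order, Alox5, Alox5ap and Ptgs1 each had the higher level in the endocardial library in 4 of 4 cases. Alox15 and Ptgs2 each had the lower level there in 4 of 4 cases, and Pla2g4a, Ptges, Ptgis and Tbxas1 were mixed. This is a description made after the values were seen and without a test.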
